A study of Mus musculus with 54 samples.

Results

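Cmpd60 is a benzamide-based inhibitor of the histone deacetylases HDAC1 and HDAC2. The genes described here are Hdac1 and Hdac2 themselves and 8 genes of the corepressor complexes that carry them: Sin3a, Sin3b, Rcor1, Kdm1a, Mta1, Mta2, Rbbp4 and Rbbp7. They were chosen by gene symbol, as 10 of the 54232 genes counted in each of 54 RNA-seq libraries, and all 10 passed the filter on low counts in every fit. The questions were how much RNA of each member the kidney, brain and heart held without the compound, and whether Cmpd60 moved any of them.

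All mice were males of BL6 background given daily intraperitoneal injections for 14 days, either of Cmpd60 at 22.5 mg/kg or of the vehicle, a mixture of DMSO, PEG400 and saline. The naturally aged mice were 20 months old and carried no transgene, and gave kidney (6 Cmpd60 and 5 vehicle libraries), brain (6 and 6) and heart (5 and 6). The APPSWE-1349 mice were 6 to 7 months old and carried a human amyloid precursor protein transgene with the Swedish mutation, driven by a promoter not given in the sources used here. Their brains gave 4 Cmpd60 and 5 vehicle libraries, and the brains of their non-transgenic littermates gave 5 and 5. The brain labels name no region, and the labels do not tell which tissues came from the same mouse.

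Some labels disagreed. The treatment field of the kidney libraries gives the opposite of their titles, and the titles were followed here. With the field in place of the titles, every difference of Cmpd60 from vehicle within kidney below would change sign. The kidney vehicle levels, also those set against brain and heart, would then come from the other kidney libraries. Library s139 is a vehicle-treated APPSWE brain in its labels and a compound-treated one in a column heading of the study's own table, and it was left out of the main fits and tried both ways. Levels are given as CPM, read counts scaled to a common library size with TMM factors. App, which could show the transgene, was at 2250 ± 115 CPM (SD, n = 5) in vehicle-treated APPSWE brain and 2160 ± 126 (SD, n = 5) in vehicle-treated littermate brain, so the genotype labels could not be checked from it.

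HDAC1 and HDAC2 remove acetyl groups from lysines of histones. Neither binds DNA by itself, and both work inside complexes that transcription factors bring to genes. SIN3A and SIN3B are the alternative scaffolds of the SIN3 complex. RCOR1 joins a deacetylase to the histone demethylase KDM1A in the CoREST complex, and MTA1 and MTA2 hold the deacetylase in the NuRD complex, which also contains a chromatin remodelling ATPase. RBBP4 and RBBP7 are closely related histone-binding proteins shared by SIN3 and NuRD. The inhibitor acts on the enzymes' activity, while the libraries measured RNA, not protein, enzyme activity or complex assembly.

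Hdac1 has a near-identical copy in the mouse genome, and this bears on how its reads could be counted. In the NCBIM37 build with GENCODE vM1 genes, Hdac1 lies on chromosome 4 from 129193348 to 129219957 on the minus strand and Hdac2 on chromosome 10 from 36694350 to 36721695 on the plus strand. The copy, Gm10093, lies on chromosome 17 from 78890905 to 78892881 on the plus strand, and is annotated as protein coding. Its coding sequence matches that of Hdac1 at 1440 of 1449 bases (99.4%), whereas Hdac2 matches Hdac1 at 75.9% of the aligned bases. The same 90-base stretch was taken from the 3 coding sequences, from base 394 in Hdac1 and Gm10093 and from base 397 in Hdac2. It holds most of the bases at which Gm10093 differs from Hdac1. The rest of the coding sequence of Gm10093 is therefore closer to Hdac1 than this stretch. Capitals mark bases that differ from Hdac1, 6 in Gm10093 and 20 in Hdac2.
Hdac1: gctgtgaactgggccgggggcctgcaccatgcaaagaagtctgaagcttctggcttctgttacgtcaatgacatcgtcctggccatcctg
Gm10093: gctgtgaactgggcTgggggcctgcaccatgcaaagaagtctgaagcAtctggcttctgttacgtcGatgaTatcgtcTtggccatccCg
Hdac2: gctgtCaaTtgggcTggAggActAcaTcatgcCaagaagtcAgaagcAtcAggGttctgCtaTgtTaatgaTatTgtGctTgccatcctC

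Of the 1989 windows of 50 bases in the Hdac1 transcript, 1520 (76.4%) occurred elsewhere in the genome without a mismatch, 1441 of them in Gm10093. The share was 22.9% for Rbbp7 and 3.01% for Rbbp4, and none of the windows of the other 7 members recurred. Read length was not given in the sources used here, and the part that reads shared by Hdac1 and Gm10093 played in the counts was not tested. Values of Hdac1 are therefore given below together with those of Gm10093 where the latter varied. The paralogues within the member list shared no window of 50 coding bases, with identities of 68.0% for Sin3a and Sin3b, 70.5% for Mta1 and Mta2 and 78.8% for Rbbp4 and Rbbp7.

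Each library held between 23584609 and 57430113 gene counts in aged mice and between 25052335 and 55871402 in the cohort of APPSWE mice, and a count of 0 allowed at most 0.127 CPM in the shallowest library. The lowest level of any member in any library was 4.83 CPM, from 270 counts of Hdac1 in an APPSWE brain. Markers fitted the labelled tissues, with kidney marker sums of 6440 to 14000 CPM in kidney and at most 8.65 CPM in aged brain and heart. Among kidneys, Cmpd60 library 55 stood apart, with 18512 genes detected, the lowest kidney marker sum (6440 CPM, the others 10800 to 14000) and the highest sum of dividing-cell markers (53.7 CPM, the others 5.55 to 28.8). In the APPSWE cohort the number of genes detected varied from 15044 to 24821, and in APPSWE brain it was 15555 to 20277 with vehicle and 16402 to 23402 with Cmpd60. The biological coefficient of variation was 0.729 in the cohort and 0.114 in aged brain. In bulk tissue, fewer cells of a type and less RNA per cell cannot be told apart.

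Hdac1 and Hdac2 had different tissue patterns in vehicle-treated aged mice. Hdac1 was high in kidney, at 51.1, 49, 50.9, 53.9 and 48.5 CPM in the 5 libraries, and low in brain, at 18.3 (lowest), 19.2 (median) and 21.1 CPM (highest of 6). In heart it was at 21.2, 23.9 and 30.7 CPM (lowest, median and highest of 6). Every kidney library lay above every heart library, and every heart library lay above every brain library, the closest pair of heart and brain libraries being 21.2 and 21.1 CPM. In that pair the copy Gm10093 was at 4.05 CPM in the heart library and 2.21 CPM in the brain library. With vehicle, Gm10093 was at 3.95 to 4.89 CPM in kidney, 2.24 to 4.05 in heart and 1.61 to 2.21 in brain. Against kidney, brain Hdac1 was lower by a log2 difference of -1.39 (SE 0.09, adjusted p = 6.55e-16, edgeR's quasi-likelihood test with Benjamini-Hochberg adjustment). Against heart it was lower by -0.34 (SE 0.09, adjusted p = 0.0009, edgeR), and this turned to 0.25 when libraries were scaled by their total counts alone.

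Hdac2 varied less. It was at 46, 43.5, 55, 50.2 and 56.9 CPM in kidney, at 56.1, 62.3 and 66.8 CPM (lowest, median and highest of 6) in brain, and at 55.4, 59.5 and 65.9 CPM in heart. The 3 ranges overlapped. Brain was higher than kidney (log2 difference 0.31, SE 0.08, adjusted p = 0.000483, edgeR) and kidney lower than heart (-0.24, SE 0.08, adjusted p = 0.00615, edgeR), the second turning to 0.16 with scaling by total counts. Brain and heart, the neighbours at the top, differed by 0.07 with an interval from -0.08 to 0.21 (adjusted p = 0.423, edgeR), and by 0.66 with scaling by total counts.

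Scaling moved these contrasts as a whole. Across all 27105 genes tested, the median log2 difference between brain and heart was 0.44 with TMM and 1.03 with total counts, between brain and kidney 0.24 and 0.43, and between kidney and heart 0.02 and 0.42. A ratio of 2 genes within a library does not depend on scaling. The ratio of Hdac2 counts to Hdac1 counts was 0.900, 0.889, 1.08, 0.930 and 1.17 in vehicle-treated kidney. It was 2.97, 3.20 and 3.52 (lowest, median and highest of 6) in brain and 2.02, 2.45 and 3.07 in heart. All kidney ratios lay below all brain and heart ratios, and those of brain and heart overlapped. Per kilobase of merged exon, the mean ratio was 0.765 in kidney, 2.48 in brain and 1.90 in heart. Per kilobase of the transcript with the longest coding sequence (2038 bases for Hdac1 and 2005 for Hdac2) it was 1.01, 3.28 and 2.51, so which of the pair was the more abundant in kidney depended on the length used. Any loss of reads that Hdac1 shares with Gm10093 would raise these ratios, and its size was not tested.

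The SIN3 scaffolds had opposite orders between brain and kidney. Sin3a was at 52.6 ± 2.20 CPM (SD, n = 5) in kidney, 46.2 ± 2.91 (SD, n = 6) in heart and 37.9 ± 1.62 (SD, n = 6) in brain. Sin3b was at 70.5 ± 1.63 CPM (SD, n = 6) in brain, 49.9 ± 1.23 (SD, n = 5) in kidney and 44.4 ± 3.49 (SD, n = 6) in heart. Every brain library lay below every kidney library for Sin3a and above every kidney library for Sin3b. The log2 differences of brain from kidney were -0.47 for Sin3a and 0.50 for Sin3b (SE 0.06 for both, adjusted p = 3.1e-08 and 6.28e-09, edgeR). The differences of kidney from heart were smaller, 0.19 for Sin3a and 0.17 for Sin3b (adjusted p = 0.0126 and 0.0204, edgeR), and neither call held with DESeq2 (adjusted p = 0.0808 and 0.0931). Brain Sin3a was also lower than heart Sin3a by -0.29 (adjusted p = 7.82e-05, edgeR), which turned to 0.31 with scaling by total counts, while brain Sin3b was higher than heart Sin3b by 0.67 (adjusted p = 1.84e-12, edgeR).

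In the CoREST pair, Rcor1, the adaptor, followed the pattern of Hdac1 and Kdm1a, the demethylase, did not. Rcor1 was at 62.8 ± 5.99 CPM (SD, n = 5) in kidney, 38.9 ± 3.83 (SD, n = 6) in heart and 23.4 ± 1.19 (SD, n = 6) in brain. None of the 3 ranges overlapped, and brain was lower than kidney by a log2 difference of -1.43 (SE 0.10, adjusted p = 7.76e-16, edgeR). Brain Rcor1 was lower than heart Rcor1 by -0.74 (adjusted p = 7.28e-09, edgeR), which shrank to -0.14 (adjusted p = 0.166) with scaling by total counts. Kdm1a was at 49.4 ± 3.8 CPM (SD, n = 6) in brain, 40.2 ± 3.76 (SD, n = 6) in heart and 36.8 ± 1.95 (SD, n = 5) in kidney. Brain Kdm1a was higher than kidney Kdm1a by 0.42 (SE 0.08, adjusted p = 6.22e-06, edgeR). Kidney and heart Kdm1a differed by -0.13 with an interval from -0.28 to 0.03 (adjusted p = 0.164, edgeR), a call that DESeq2 made (adjusted p = 0.0117) and that turned to 0.29 with scaling by total counts.

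The NuRD subunits Mta1 and Mta2 also ran in different orders. Mta1 was at 63.5 ± 3.88 CPM (SD, n = 6) in heart, 46.2 ± 2.55 (SD, n = 6) in brain and 37.6 ± 3.74 (SD, n = 5) in kidney, and none of these ranges overlapped. Mta2 was at 68.1 ± 2.71 CPM (SD, n = 5) in kidney, 56.8 ± 2.31 (SD, n = 6) in heart and 40.0 ± 1.09 (SD, n = 6) in brain, again with no overlap. Kidney was lower than heart in Mta1 by -0.76 (adjusted p = 4.08e-12, edgeR) and higher in Mta2 by 0.26 (adjusted p = 0.00063, edgeR). Brain was lower than heart in both, by -0.46 and -0.50 (adjusted p = 7.79e-08 and 4.37e-09, edgeR), and these turned to 0.14 and 0.09 with scaling by total counts.

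Among the histone-binding subunits, Rbbp4 was at 148 ± 8.17 CPM (SD, n = 5) in kidney and 109 in both brain (± 6.09, SD, n = 6) and heart (± 7.18, SD, n = 6). Rbbp7 was at 186 CPM in heart, 111 in kidney and 97.6 in brain. Kidney Rbbp4 was higher than heart Rbbp4 by 0.44 and kidney Rbbp7 lower than heart Rbbp7 by -0.74 (adjusted p = 3.71e-08 and 4.38e-12, edgeR). Brain and heart Rbbp4 differed by -0.001 with an interval from -0.11 to 0.11, which became 0.07 with DESeq2 and 0.60 with scaling by total counts. The brain difference from kidney in Rbbp7 was -0.19 (adjusted p = 0.00971, edgeR), and DESeq2 did not call it (-0.06, adjusted p = 0.392).

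The order of the members by level per length turned with the length used. Per kilobase of merged exon, Rbbp7 was the highest member in all 3 tissues, at 63.8 CPM per kb in heart, 38.3 in kidney and 33.6 in brain. Per kilobase of the transcript with the longest coding sequence, Rbbp7 was the highest in heart (82.7 CPM per kb), and Rbbp4 in kidney (75.1, with Rbbp7 at 49.7) and in brain (55.4, with Rbbp7 at 43.5). The lowest per kilobase of merged exon were Rcor1 in brain (4.11) and heart (6.84) and Kdm1a in kidney (7.11), and per kilobase of transcript Sin3a in kidney (10.8), brain (7.78) and heart (9.5). Of the 10 members, 10 passed an adjusted p of 0.05 between brain and kidney, 8 between brain and heart and 9 between kidney and heart in edgeR. Among all genes tested the same test called 72.5%, 72.1% and 56.7%, so most genes differed between these tissues. The groups did not overlap for 8, 7 and 7 members, against 59.6%, 55.0% and 41.5% of all genes.

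**Figure D1:**
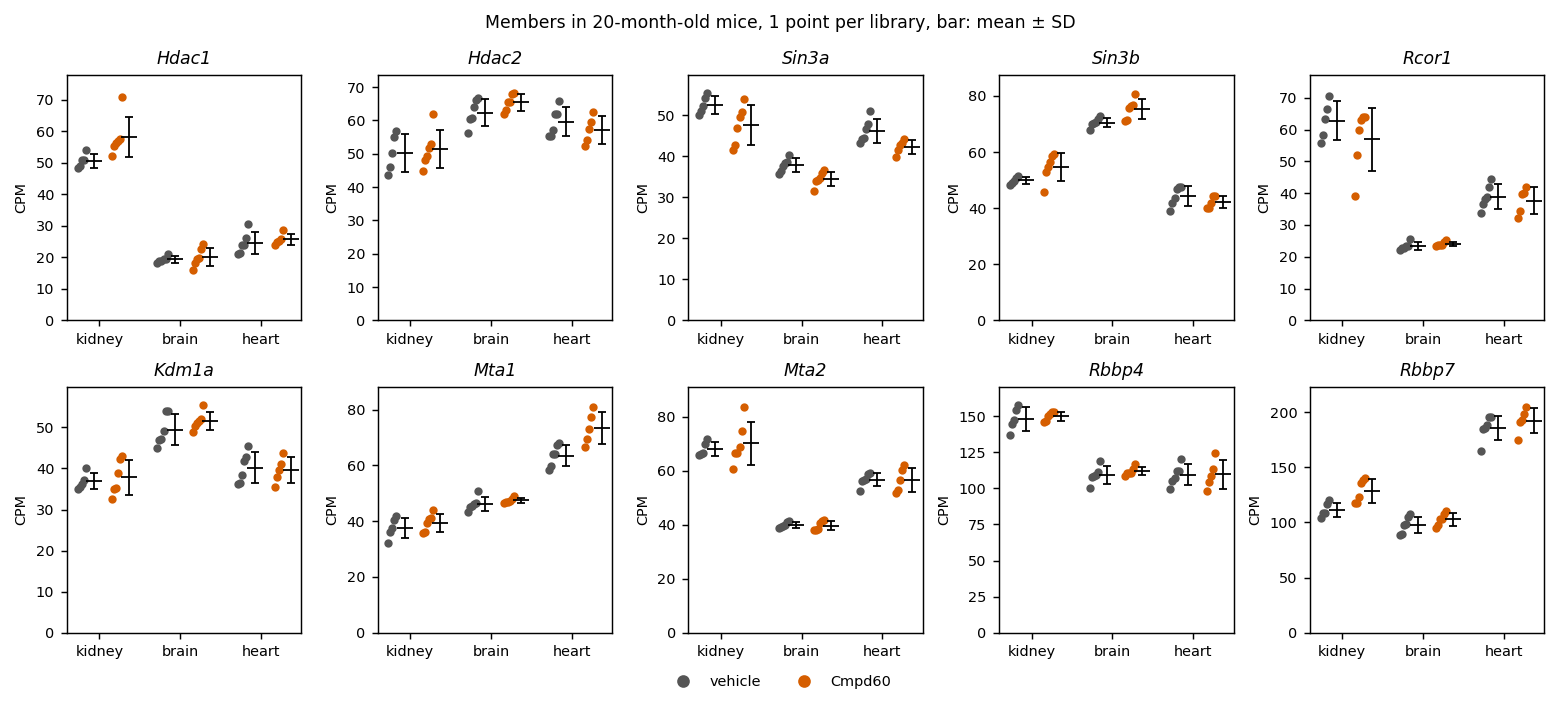
Level of each member in the 34 libraries of 20-month-old mice, in CPM (y axis from 0) by tissue (x axis), with vehicle libraries in grey, Cmpd60 libraries in orange and bars at the mean with the SD. Hdac1 and Rcor1 stand highest in kidney, while the grey and orange points of every panel overlap within each tissue.

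With Cmpd60, none of the 10 members passed an adjusted p of 0.05 in edgeR in any aged tissue. Over all genes, edgeR called 0.300% in kidney, 0.0205% in brain and 1.18% in heart. At an unadjusted p below 0.05, edgeR gave 2 members in kidney, 1 in brain and 2 in heart, where 11.3%, 13.8% and 13.5% of all genes lay below it. DESeq2 called 1 member, Sin3a in brain, and limma-voom called none. Over all genes DESeq2 called more than edgeR, with 429 of 20698 in kidney, 401 of 24438 in brain and 746 of 19452 in heart. For limma-voom the numbers were 70, 2 and 245. The 95% intervals of the 10 members bounded the change with Cmpd60 between 0.756-fold and 1.30-fold in kidney, between 0.830-fold and 1.14-fold in brain and between 0.829-fold and 1.26-fold in heart. A p-value that misses the threshold does not show that a level stayed the same, and these intervals give the sizes that the data left possible. The median log2 fold change of the members was 0.04 in kidney, 0.02 in brain and -0.03 in heart, beside -8.01e-05, 0.01 and -0.00144 over all genes. Of the 10 members, 8, 8 and 3 had a log2 fold change above 0, against 50.0%, 51.8% and 49.6% of all genes. The groups of all 10 overlapped in each tissue, and 2.31%, 1.07% and 2.43% of all genes had groups that did not.

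For the drug targets, the Hdac1 values in kidney were 51.1, 49, 50.9, 53.9 and 48.5 CPM with vehicle and 52.3 (lowest), 56.5 (median) and 70.9 CPM (highest of 6) with Cmpd60. Cmpd60 libraries lay higher, with 1 of them below the highest vehicle library, and the log2 fold change was 0.20 (SE 0.08, interval 0.02 to 0.38, unadjusted p = 0.0315, adjusted p = 0.39, edgeR). The highest value belonged to library 55, the kidney with the low kidney marker sum described above, and without it the log2 fold change was 0.14. That library also had the lowest Gm10093 of all kidney libraries, at 3.43 CPM. In brain, Hdac1 was at 19.4 ± 0.984 CPM (SD, n = 6) with vehicle and 20.1 ± 2.95 (SD, n = 6) with Cmpd60, and in heart at 24.5 ± 3.52 (SD, n = 6) and 25.7 ± 1.83 (SD, n = 5). The log2 fold changes were 0.03 (interval -0.14 to 0.19) and 0.05 (interval -0.17 to 0.26). The copy Gm10093 was lower in every Cmpd60 brain (1.30 to 1.59 CPM) than in every vehicle brain (1.61 to 2.21 CPM). Of all genes in aged brain, 1.07% had groups that did not overlap, and the reason for the lower Gm10093 was not tested. The sum of Hdac1 and Gm10093 in brain was 21.5 ± 3.0 CPM with Cmpd60 and 21.2 ± 1.16 with vehicle (SD, n = 6 each).

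The means of Hdac2 with and without Cmpd60 differed by less than the vehicle SD in each aged tissue. It was at 50.3 ± 5.70 CPM (SD, n = 5) with vehicle and 51.5 ± 5.81 (SD, n = 6) with Cmpd60 in kidney. In brain the levels were 62.4 ± 4.05 and 65.4 ± 2.58 CPM (SD, n = 6 each), and in heart 59.6 ± 4.31 (SD, n = 6) and 57.2 ± 4.17 (SD, n = 5). The log2 fold changes were 0.03 (interval -0.18 to 0.24), 0.04 (-0.06 to 0.14) and -0.08 (-0.23 to 0.08).

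Of the 10 members, Sin3a had the smallest p-value, in aged brain. It was at 35.7, 38.0 and 40.3 CPM (lowest, median and highest of 6) with vehicle and at 31.6, 34.5 and 36.7 CPM with Cmpd60. Cmpd60 libraries lay lower, and 2 of them, at 35.9 and 36.7 CPM, lay above the lowest vehicle library. This was a log2 fold change of -0.16 (SE 0.05, interval -0.27 to -0.06, unadjusted p = 0.00434, adjusted p = 0.186, edgeR). DESeq2 gave an adjusted p of 0.0475 and limma-voom 0.184. Cmpd60 brains had 25850 to 28017 genes detected and vehicle brains 24939 to 25861, and a fit that took this number into account gave a log2 fold change of -0.14 (adjusted p = 0.671, edgeR). The sum of the neuron markers was 4510 to 5720 CPM with Cmpd60 and 4080 to 4780 with vehicle, and its part in the Sin3a result was not tested.

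Sin3a also had a negative log2 fold change in the other aged tissues. In kidney it was at 54.2, 51.1, 50, 52.3 and 55.4 CPM with vehicle and 41.6, 48.2 and 54 CPM (lowest, median and highest of 6) with Cmpd60, and in heart at 43.3, 45.5 and 51.2 CPM (of 6) with vehicle and 42.7, 41.5, 44.3, 43.3 and 39.9 CPM with Cmpd60. The highest Cmpd60 library overlapped the vehicle range in each tissue. The log2 fold changes were -0.15 in kidney (SE 0.08, unadjusted p = 0.0973, adjusted p = 0.524, edgeR) and -0.14 in heart (SE 0.06, unadjusted p = 0.0332, adjusted p = 0.311, edgeR). Of the 17536 genes tested in all 3 tissues, 15.8% were likewise lower in all 3. The same direction in all 3, higher or lower, with an edgeR unadjusted p below 0.05 in at least 2, was found in 3.27%.

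Sin3b, the other scaffold, did not share that direction in kidney and brain. It was at 49.9 ± 1.23 CPM (SD, n = 5) and 54.6 ± 4.95 (SD, n = 6) in kidney, with vehicle and Cmpd60, and at 70.5 ± 1.63 and 75.3 ± 3.65 CPM (SD, n = 6 each) in brain. In heart it was at 44.4 ± 3.49 (SD, n = 6) and 42.2 ± 2.09 (SD, n = 5). The log2 fold changes were 0.13, 0.07 and -0.09, and each interval included 0. The difference between kidney and heart in the effect on Sin3b was 0.21 (SE 0.09, unadjusted p = 0.0257, adjusted p = 0.346, edgeR). Sin3a effects differed between tissues by -0.01 to -0.02. In the 3 tests of a difference in effect between tissues, edgeR called no member, and 0.0885%, 0.350% and 0.0517% of all genes for kidney against brain, kidney against heart and brain against heart. At an unadjusted p below 0.05 it gave 0, 1 and 0 members, beside 2710, 3178 and 2462 of 27105 genes.

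The count ratio of Sin3b to Sin3a within a library separated the aged brain groups. It was 1.78, 1.85 and 1.99 (lowest, median and highest of 6) with vehicle and 2.05, 2.17 and 2.37 with Cmpd60, so every Cmpd60 brain lay above every vehicle brain. The difference of the mean log2 ratios was 0.23 (SE 0.04), higher in 6 of 6 Cmpd60 libraries. An exact two-sided permutation test over the 924 splits of these libraries gave p = 0.00216, the smallest it can give. Adjusted over the 20 tests of 4 paralogue ratios in 5 settings the permutation p was 0.0433, and this was the 1 ratio of 20 below 0.05. In kidney the ratio was 0.905, 1.0, 1.02, 0.926 and 0.898 with vehicle and 0.846, 1.22 and 1.32 (lowest, median and highest of 6) with Cmpd60, where 5 of 6 Cmpd60 libraries lay above all vehicle libraries and library 52 below them. The kidney difference was 0.27 (exact permutation p = 0.0519, adjusted 0.238). In heart it was 0.06 (exact permutation p = 0.489, adjusted 0.598), with overlapping groups. The younger brains did not share 1 direction. The difference was -0.28 in APPSWE brain (SE 0.15, exact permutation p = 0.127, adjusted 0.317), opposite in sign to aged brain. In littermate brain it was 0.17 (SE 0.18, exact permutation p = 0.397, adjusted 0.598). Leaving out Cmpd60 aged brain library 38 ended the call in aged brain, with an adjusted permutation p of 0.0866. The difference was then 0.20 (SE 0.03), all 5 remaining Cmpd60 brains still lay above all 6 vehicle brains, and the exact permutation p was 0.00433, from 2 of 462 splits.

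**Figure D2:**
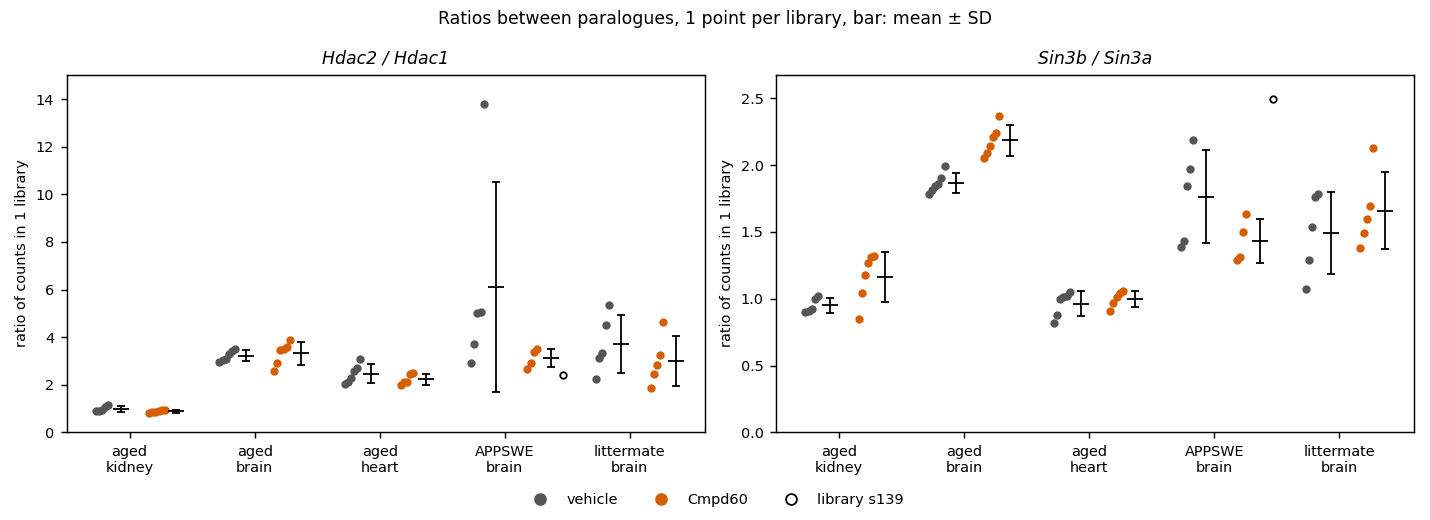
Ratios of counts between paralogues within each library (y axes from 0), Hdac2 over Hdac1 at left and Sin3b over Sin3a at right, by tissue and cohort (x axis), with vehicle libraries in grey, Cmpd60 libraries in orange, library s139 as an open circle and bars at the mean with the SD. In aged brain the Sin3b to Sin3a ratio runs from 1.78 to 1.99 with vehicle and from 2.05 to 2.37 with Cmpd60, and 1 APPSWE vehicle library has an Hdac2 to Hdac1 ratio of 13.8.

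The CoREST members showed no change past the test in aged tissue. Rcor1 in kidney was at 62.8 ± 5.99 CPM (SD, n = 5) with vehicle and 56.9 ± 9.88 (SD, n = 6) with Cmpd60, a log2 fold change of -0.14 (interval -0.40 to 0.11). The lowest Cmpd60 value, 39.1 CPM, was again that of library 55. In brain and heart the log2 fold changes of Rcor1 were 0.01 and -0.07. Those of Kdm1a were 0.04 in kidney, 0.03 in brain and -0.04 in heart, all with intervals that included 0.

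Among the NuRD members, Mta1 in heart had an unadjusted p below 0.05. It was at 58.2, 64 and 67.9 CPM (lowest, median and highest of 6) with vehicle and at 69.5, 80.8, 73.1, 66.6 and 77.3 CPM with Cmpd60. The Cmpd60 libraries lay higher, and 1 of them, at 66.6 CPM, fell within the vehicle range, for a log2 fold change of 0.20 (SE 0.07, interval 0.05 to 0.34, unadjusted p = 0.00967, adjusted p = 0.185, edgeR), and DESeq2 gave an adjusted p of 0.0876. Endothelium markers summed to 891 to 1240 CPM with Cmpd60 and 843 to 931 with vehicle in heart, and T and B cell markers to 1.78 to 3.90 and 3.72 to 6.64 CPM. Their part in the heart results was not tested. Mta2 in heart was at 56.8 ± 2.31 CPM (SD, n = 6) with vehicle and 56.7 ± 4.45 (SD, n = 5) with Cmpd60, a log2 fold change of -0.02. The count ratio of Mta2 to Mta1 in heart was lower with Cmpd60 by -0.21 on the log2 scale (exact permutation p = 0.0173, adjusted 0.13).

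Rbbp7 in kidney was at 109, 104, 116, 120 and 108 CPM with vehicle and at 117, 129 and 140 CPM (lowest, median and highest of 6) with Cmpd60. The groups overlapped between 117 and 120 CPM, and the log2 fold change was 0.20 (SE 0.08, interval 0.03 to 0.38, unadjusted p = 0.024, adjusted p = 0.363, edgeR). Rbbp4 in kidney was at 148 ± 8.17 CPM (SD, n = 5) and 150 ± 3.08 (SD, n = 6), a log2 fold change of 0.02. The ratio of Rbbp7 to Rbbp4 was higher with Cmpd60 by 0.19 on the log2 scale in kidney (exact permutation p = 0.0195, adjusted 0.13). In brain and heart the log2 fold changes of both genes lay between -0.01 and 0.04.

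**Figure D3:**
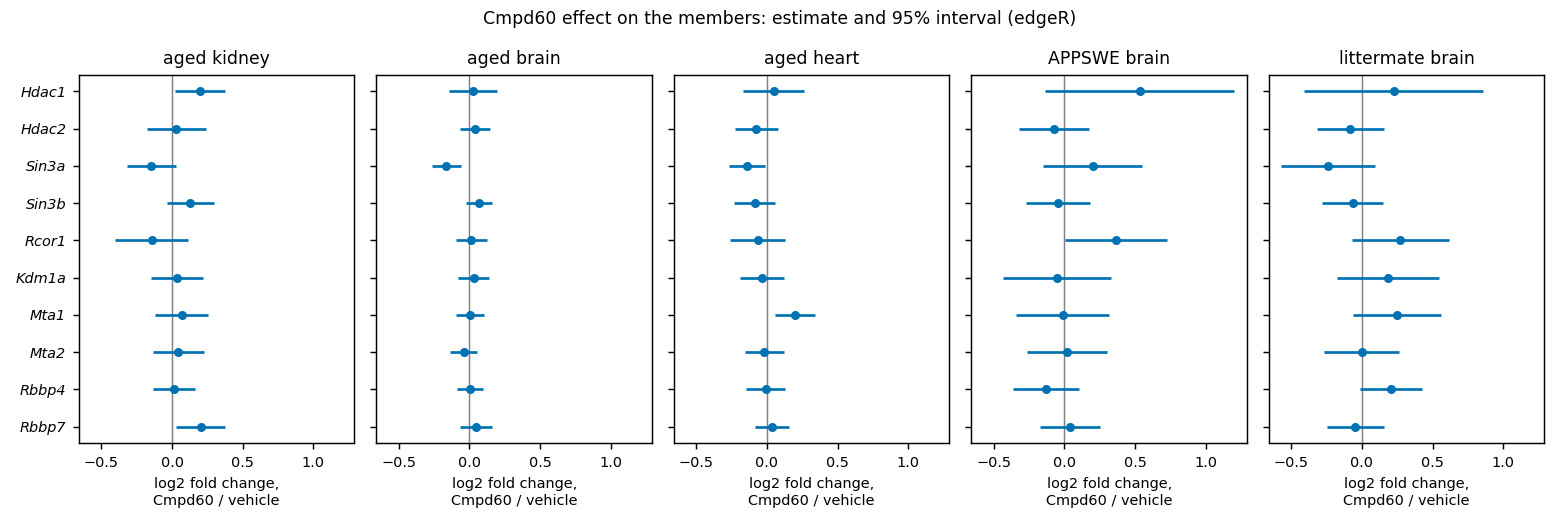
Log2 fold change of each member with Cmpd60 against vehicle (x axis), with edgeR's estimate as a point and its 95% interval as a line, in the 3 aged tissues and in the brains of APPSWE mice and littermates. The intervals are narrowest in aged brain, where that of Sin3a runs from -0.27 to -0.06, and widest for Hdac1 in APPSWE brain, from -0.14 to 1.20.

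The other subunits of the same complexes were examined as lists. Of 12 other SIN3 subunits, 8 other CoREST subunits and 9 other NuRD subunits no gene passed an adjusted p of 0.05 in edgeR in kidney or brain, and 1 gene, Chd3, passed in heart. At an edgeR unadjusted p below 0.05 the 3 lists gave 1, 1 and 1 genes in kidney, 3, 2 and 1 in brain and 2, 0 and 3 in heart. Over all genes the shares were 11.3%, 13.8% and 13.5%. Chd3 encodes a remodelling ATPase of NuRD. In heart it was at 49.9, 52.4 and 63.8 CPM (lowest, median and highest of 6) with vehicle and at 80.3, 99.8 and 121 CPM (lowest, median and highest of 5) with Cmpd60, with no overlap. Of all genes in heart, 2.43% had groups that did not overlap, and edgeR called 1.18% at an adjusted p of 0.05. The log2 fold change of Chd3 was 0.88 (SE 0.11, adjusted p = 0.00204, edgeR). In kidney Chd3 was at 525 ± 83.2 CPM (SD, n = 5) with vehicle and 447 ± 84.9 (SD, n = 6) with Cmpd60, and in brain at 602 ± 65.9 and 602 ± 33.6 (SD, n = 6 each). The effect on Chd3 differed between kidney and heart by -1.12 (adjusted p = 0.000614, edgeR) and between brain and heart by -0.89 (adjusted p = 0.0181, edgeR), tests in which it was the 1 gene called among the 9 NuRD subunits. Over all genes these 2 tests called 0.350% and 0.0517%.

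In brain the smallest p-value of these lists was that of Rcor2, a CoREST adaptor and paralogue of Rcor1, at 6.96 ± 0.982 CPM (SD, n = 6) with vehicle and 9.28 ± 0.556 (SD, n = 6) with Cmpd60. The ranges, 5.89 to 8.45 and 8.46 to 9.98 CPM, narrowly did not overlap, as was so for 1.07% of all genes in aged brain. The log2 fold change was 0.39 (SE 0.09, unadjusted p = 0.000418, adjusted p = 0.106, edgeR). DESeq2 called Rcor2 (adjusted p = 0.00686) among 401 of 24438 genes that it called in aged brain. In kidney the smallest p-value was that of Mbd2, the methyl-CpG-binding subunit of NuRD, at 81.9 ± 6.51 CPM (SD, n = 5) and 97.5 ± 11 (SD, n = 6), a log2 fold change of 0.25 (adjusted p = 0.319, edgeR). The histone acetyltransferases, which add the groups that the deacetylases remove, had 8 of 9 genes below 0 in each aged tissue. Of all genes, 50.0%, 51.8% and 49.6% lay above 0 in kidney, brain and heart. The acetyltransferase medians were -0.06, -0.05 and -0.07, beside -8.01e-05, 0.01 and -0.00144 over all genes. None passed the edgeR test, with 1, 2 and 2 below an unadjusted p of 0.05, beside 11.3%, 13.8% and 13.5% of all genes. Of the 3 MiDAC subunits and the 6 genes of the NCoR complex, which holds HDAC3 instead, none passed in edgeR either. Of 3 genes long known to rise with deacetylase inhibitors in cultured cells and measured here, none passed, with medians of 0.13, 0.02 and -0.19.

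In the APPSWE cohort the members varied more between mice. Hdac1 in vehicle-treated APPSWE brain was at 4.83, 12.5, 20.4, 15.9 and 15.9 CPM and with Cmpd60 at 20.6, 23.1, 18.3 and 18.4 CPM. The groups overlapped through the vehicle library at 20.4 CPM, and library s140, at 4.83 CPM, lay far below the rest. The log2 fold change was 0.53 (SE 0.33, interval -0.14 to 1.20, adjusted p = 0.684, edgeR), and 0.31 without library s140. It was 0.29 without the 5 cohort libraries that had under 17000 genes detected. With the number of detected genes as a covariate it was 0.71 (unadjusted p = 0.0435, adjusted p = 0.462, edgeR). In littermates, Hdac1 was at 10.4, 18.4, 15.3, 21.6 and 28.1 CPM with vehicle and at 32.5, 23.7, 22, 12.5 and 18.8 CPM with Cmpd60, a log2 fold change of 0.23 (interval -0.41 to 0.86).

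The near-identical copy also varied widely in the cohort. Gm10093 held 3.11% to 71.0% of the summed CPM of Hdac1 and Gm10093 in the cohort, against 4.62% to 16.1% in the aged tissues. In library s140, Hdac1 was at 4.83 CPM and Gm10093 at 11.8 CPM, and in vehicle-treated littermates the library with the lowest Hdac1 (10.4 CPM) had the highest Gm10093 (8.68 CPM) and that with the highest Hdac1 (28.1 CPM) the lowest Gm10093 (0.925 CPM). The summed level of both genes was 20.3 ± 2.98 CPM (SD, n = 5) in vehicle-treated APPSWE brain, where Hdac1 alone was 13.9 ± 5.81. With Cmpd60 the sum was 23.0 ± 1.82 CPM (SD, n = 4) and Hdac1 alone 20.1 ± 2.28. In littermates the sum was 22.9 ± 3.69 CPM with vehicle and 26.3 ± 7.27 with Cmpd60 (SD, n = 5 each), and Hdac1 alone 18.7 ± 6.64 and 21.9 ± 7.30. The SD of the sum was below that of Hdac1 alone in both vehicle groups and in APPSWE brain with Cmpd60, and about the same in Cmpd60-treated littermates. There library s152 had the highest Hdac1 of the cohort (32.5 CPM) together with 6.38 CPM of Gm10093.

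Hdac2 was steadier, at 66.4, 62.8, 59.7, 58.8 and 80.6 CPM with vehicle and 72.5, 61.7, 61.7 and 53.8 CPM with Cmpd60 in APPSWE brain. The groups overlapped, with a log2 fold change of -0.07 (interval -0.32 to 0.18). In littermates it was at 63.4 ± 6.92 and 59.9 ± 1.90 CPM (SD, n = 5 each), a log2 fold change of -0.08 (interval -0.32 to 0.15). The count ratio of Hdac2 to Hdac1 reached 13.8 in library s140 and lay between 2.92 and 5.06 in the other vehicle-treated APPSWE brains and between 2.67 and 3.51 with Cmpd60.

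With library s139 left out, Rcor1 was the 1 member whose APPSWE groups did not overlap. It was at 18.4, 27, 23, 26 and 26.1 CPM with vehicle and at 31.8, 29, 31.5 and 31.8 CPM with Cmpd60, so all Cmpd60 libraries lay above all vehicle libraries. Such a separation upward was found in 1.49% of all genes. The log2 fold change was 0.37 (SE 0.18, interval 0.00 to 0.73, unadjusted p = 0.0481, adjusted p = 0.521, edgeR). It was 0.28 without library s140 and 0.28 without the 5 cohort libraries that had under 17000 genes detected. With the number of detected genes as a covariate it was 0.41 (unadjusted p = 0.0311, adjusted p = 0.434, edgeR). In littermates Rcor1 was at 30.3, 24.8, 28.7, 25.2 and 27.1 CPM with vehicle and at 43.5, 31, 37.1, 25.3 and 27.5 CPM with Cmpd60, with overlap, a log2 fold change of 0.27 (interval -0.07 to 0.62) that became 0.15 without the libraries of few genes. Library s139 had 25.9 CPM of Rcor1, within the vehicle range, 20.7 CPM of Hdac1 and 100 CPM of Sin3b, the last above all other cohort libraries. With s139 as Cmpd60 the APPSWE groups of Rcor1 overlapped, with a log2 fold change of 0.32 (unadjusted p = 0.0674, adjusted p = 0.535, edgeR). With s139 as vehicle they stayed apart, with a log2 fold change of 0.35 (unadjusted p = 0.0476, adjusted p = 0.557, edgeR).

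The Sin3a values in the cohort changed with the libraries included. In APPSWE brain it was at 36.2, 55.6, 66.5, 46 and 35.8 CPM with vehicle and at 58.3, 54.9, 54.4 and 52.8 CPM with Cmpd60, a log2 fold change of 0.20 (interval -0.15 to 0.55) that became -0.06 without the libraries of few genes. In littermates it was at 50, 54.8, 54.7, 46.2 and 73.7 CPM with vehicle and at 34.6, 51, 48.9, 49.1 and 53.4 CPM with Cmpd60, a log2 fold change of -0.24 (interval -0.57 to 0.10) that became -0.03 without the libraries of few genes. The groups overlapped in both genotypes. The low vehicle values (36.2 and 35.8 CPM) came from the 2 vehicle-treated APPSWE libraries with the fewest genes detected, and the extremes of the littermates (73.7 and 34.6 CPM) from libraries with 15044 and 15084 genes detected. With the number of detected genes as a covariate and all libraries kept, the log2 fold changes were 0.16 in APPSWE brain and -0.28 in littermates.

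**Figure D4:**
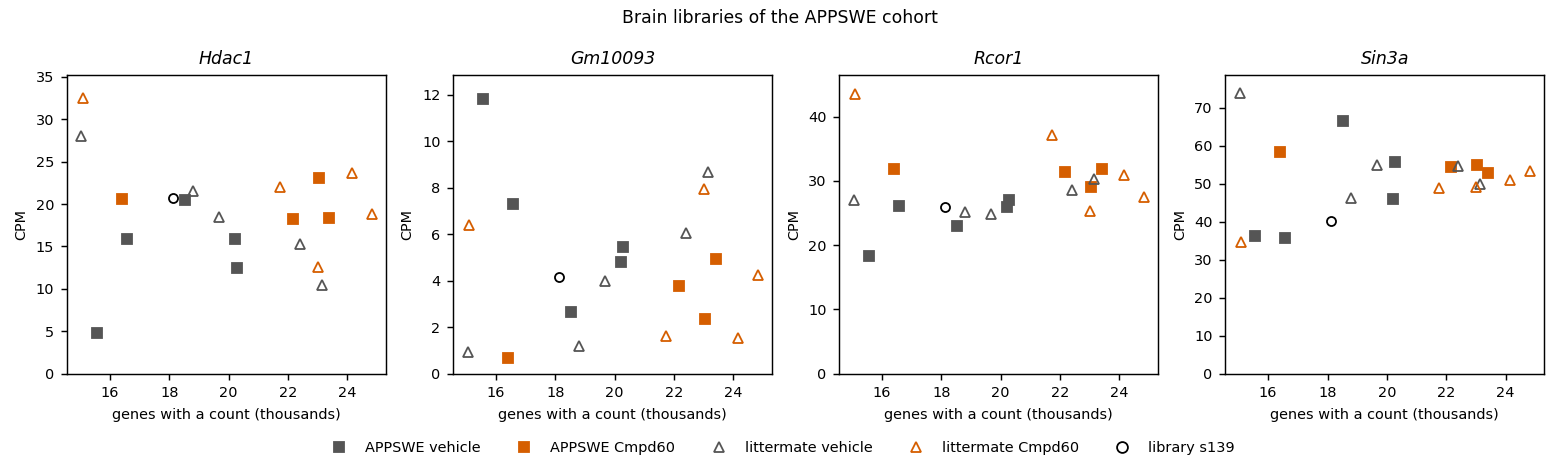
Level in CPM (y axes from 0) against the number of genes with a count (x axes) in the 20 brain libraries of the APPSWE cohort, for Hdac1, its copy Gm10093, Rcor1 and Sin3a, with APPSWE mice as squares, littermates as open triangles, vehicle in grey, Cmpd60 in orange and library s139 as an open circle. The extreme values of Hdac1 (4.83 and 32.5 CPM) and of Sin3a (34.6 and 73.7 CPM) belong to libraries with under 17000 genes.

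No member passed an adjusted p of 0.05 in edgeR in the cohort, and the percentage called among all 23194 genes was 0 for Cmpd60 in APPSWE brain, 0 in littermate brain, 0.00862 for genotype with vehicle, 0 for genotype with Cmpd60 and 0 for the interaction. At an unadjusted p below 0.05, edgeR gave 1 member in APPSWE brain (Rcor1) and 0 in littermates, where 9.46% and 3.67% of all genes lay below it. For the interaction it gave 1 member, beside 5.09% of all genes. DESeq2 gave 1 and 0 members and limma-voom 2 and 0 at that level. The intervals of the members spanned 0.738-fold to 2.30-fold in APPSWE brain and 0.674-fold to 1.81-fold in littermates. The median log2 fold changes of the members were 0.00 (0.003) and 0.09, beside 0.03 and 0.02 over all genes, and 5 of 10 members lay above 0 in each, against 53.8% and 52.8% of all genes. The groups overlapped for 9 of 10 members in APPSWE brain and for all 10 in littermates and between genotypes, while 2.31%, 0.509%, 0.638% (vehicle) and 0.936% (Cmpd60) of all genes had groups that did not.

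Between genotypes with vehicle, Rbbp4 had an unadjusted p below 0.05, with 198, 140, 148, 133 and 154.5 CPM in APPSWE brain and 135, 129, 150, 131 and 97.3 CPM in littermate brain. The groups overlapped, and the highest and lowest values belonged to libraries s140 and s155, both with few genes detected. The log2 difference was 0.27 (SE 0.11, unadjusted p = 0.0201, adjusted p = 0.509, edgeR), and 8.67% of all genes lay below that level. Without the libraries of few genes it was 0.04 (unadjusted p = 0.675, edgeR). The effect of Cmpd60 on Rbbp4 differed between genotypes by -0.34 (SE 0.16, unadjusted p = 0.0431, adjusted p = 0.966, edgeR), which became -0.12 without the libraries of few genes (unadjusted p = 0.337, edgeR). With Cmpd60 no member had an unadjusted p below 0.05 between genotypes, where 1.34% of all genes did.

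Of the lists of other subunits in the cohort, none had a gene past the edgeR test. The SIN3, CoREST and NuRD lists gave 1, 1 and 1 genes below an edgeR unadjusted p of 0.05 in APPSWE brain and 0, 2 and 0 in littermates. Over all genes the shares were 9.46% and 3.67%. All 12 other SIN3 subunits had a log2 fold change below 0 in APPSWE brain, where 53.8% of all genes lay above 0. Their median was -0.27 against 0.03 over all genes. The part that the libraries with few genes detected played in this was not tested. In littermates 7 of the 12 SIN3 subunits were below 0, with a median of -0.08, where 52.8% of all genes lay above 0.

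Correlations between the members from library to library were mixed in sign, and pairs of other genes were not examined for comparison. After the mean of each group was subtracted, 31 of the 45 pairs of members had a positive correlation of log2 CPM across the 34 aged libraries, with a median of 0.111 and a range from -0.479 (Sin3b and Rcor1) to 0.557 (Kdm1a and Mta2), and 22 of 45 were positive in the cohort. These libraries share depth, tissue and in part mice, and the correlations are given as a description. Among 9063 genes at 5 CPM or more in each aged tissue, those most like Hdac1 by this measure were Mcm6 (r = 0.704), a subunit of the replicative helicase, Pabpc1 (0.654), a poly(A)-binding protein, and Cep152 (0.647), a centrosome protein. For Mcm6 the value was 0.664 over the 19 cohort libraries in groups, while for Pabpc1 and Cep152 it was 0.02 (0.0205) and -0.29. Those most like Hdac2 were Gtf2h5 (0.867), Vti1b (0.814) and Dnajc2 (0.810), at 0.258, 0.388 and 0.025 in the cohort.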

How the data were processed

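Stranded poly(A) libraries were sequenced from mouse kidney, heart and brain. The values deposited by the authors are read counts per Ensembl gene for each library, with 54232 genes and 5 summary lines. Per the labels and the study's methods, reads were trimmed with Trimmomatic 0.32, aligned with HISAT2 2.1.0 and counted with HTSeq 0.11.0. The genome build, read length and handling of multi-mapping reads are not given in the sources used here. The summary lines held 15.36% to 22.15% of the counts and were left out.

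A gene was kept if its count exceeded 2 in 3 or more libraries. Counts were scaled with TMM and tested with edgeR 4.0.16 (quasi-likelihood test, R 4.3.3, Benjamini-Hochberg adjustment over all genes of a fit), separately for each aged tissue, across the 3 aged tissues for tissue differences, and across the cohort. CPM used a prior count of 2 only on the log2 scale. Tissues were fitted as if from separate mice, so the p-values of tissue differences take no account of tissues from the same mouse. Each p-value sets a difference against the spread between these libraries. Ratios of paralogue counts were compared with exact two-sided permutation tests.

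Alternatives were DESeq2 1.42.0, limma-voom (limma 3.58.1), other scalings and filters, the number of detected genes as a covariate, other sets of libraries, and both treatments for library s139. Leaving out the 5 cohort libraries with under 17000 genes detected and scaling levels by transcript length were chosen after seeing the data. The methods were also run on simulated counts for kidney, heart and the cohort. The spread between simulated libraries was set below that of the data, so these runs cannot show how the fits behave at the real spread.

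The members and gene lists were chosen with earlier results of these data known. Other genes were named when they passed an adjusted p of 0.05 or had the smallest p-value of the complex lists in an aged tissue. Of 119 listed symbols, 117 were found, 7 of them by a synonym. Positions and sequences come from the GENCODE vM1 annotation of NCBIM37, which is used for names, positions and sequences and is not known to be the build of the counts.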

Additional observations from a re-analysis of the deposited data

Results flagged for a closer look

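In groups of 4 to 10 libraries, a value was singled out when its gap to the nearest other library was large for the range of its group (Dixon's test at 95%). This was so in 15 of 140 groups, 10 of 100 for the level of a member and 5 of 40 for a ratio of paralogues, and chance gives about 1 in 20 groups. Explanations for these values were not tested.

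In the aged tissues, Hdac1 was at 70.9 CPM in Cmpd60-treated kidney library 55, with the nearest at 57.7 CPM. Rcor1 was at 25.6 CPM in vehicle-treated brain library 29, with the nearest at 23.4 CPM. Rbbp7 was at 165 CPM in vehicle-treated heart library 62, with the nearest at 185 CPM.

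In the cohort, library s152, a Cmpd60-treated littermate with 15084 genes detected, stood apart in 5 measures. It had 34.6 CPM of Sin3a (nearest 48.9), 49.4 of Kdm1a (nearest 67.4), 82.2 of Mta1 (nearest 56.9) and 87.0 of Rbbp7 (nearest 117), and a ratio of Mta2 to Mta1 counts of 0.414 (nearest 0.84). Library s155, a vehicle-treated littermate with 15044 genes detected, had 30.5 CPM of Kdm1a (nearest 59.5), a Mta2 to Mta1 ratio of 1.51 (nearest 0.957) and a Rbbp7 to Rbbp4 ratio of 1.23 (nearest 0.895). Another vehicle-treated littermate, s154, had 38.9 CPM of Mta2 (nearest 48.7). Among APPSWE brains, vehicle-treated s140 had an Hdac2 to Hdac1 ratio of 13.8 (nearest 5.06), and Cmpd60-treated s143 had 29 CPM of Rcor1 (nearest 31.5) and a Mta2 to Mta1 ratio of 1.03 (nearest 0.842).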

How the results depend on the processing

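No paired analysis was possible because library numbers are not shared between groups. The counts of members called and of ratios passing kept within 1.5 times of their main value in 118 of 119 other settings, the exception being DESeq2, which called 1 member (Sin3a) in aged brain where edgeR called 0. A count of 0 in both settings was taken as kept, and which members were called was not followed. Between brain and heart, scaling by total counts called 7 members where the main fit called 8. Hdac2 and Rbbp4 entered, while Mta1, Mta2 and Rcor1 dropped out. Leaving out 1 library moved the number of paralogue ratios below an adjusted permutation p of 0.05 between 0 and 2, with 0 without aged brain Cmpd60 library 38 and 2 without aged heart Cmpd60 library 71. It left the other counts within 1.5 times. Direction or side of the threshold changed in 19 of 451 log2 values of the treatment comparisons and 26 of 210 of the tissue comparisons under other settings. The cause of the changes below was not tested.

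With the number of detected genes as a covariate, the log2 fold change became -0.046 for Hdac2 in kidney, -0.040 for Hdac1 and -0.002 for Kdm1a in aged brain, and 0.025 for Mta1, -0.059 for Mta2 and -0.029 for Rbbp7 in APPSWE brain. With scaling by total counts it became -0.012 for Rcor1, -0.018 for Mta1 and -0.021 for Rbbp4 in aged brain, and with a filter of at least 10 counts -0.002 for Rbbp4 in aged brain. Scaling by total counts also turned the brain to heart difference of Hdac1 (0.252), Sin3a (0.313), Mta1 (0.140), Mta2 (0.094) and Rbbp4 (0.599), and the kidney to heart difference of Hdac2 (0.160) and Kdm1a (0.287). The brain to heart difference of Rbbp4 was 0.067 with DESeq2 and with its size factors in edgeR, and 0.030 without a filter. Without the cohort libraries of few genes, Sin3a (-0.055) and Rbbp7 (-0.042) turned in APPSWE brain, and Mta1 (-0.018), Mta2 (0.103) and Rbbp7 (0.041) in littermates. With library s139 as Cmpd60, Sin3b was at 0.029 in APPSWE brain, and with it as vehicle, Mta1 was at 0.027.

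Leaving out each library in turn gave these ranges where the direction turned. In kidney they were -0.025 to 0.08 for Hdac2, -0.001 to 0.076 for Kdm1a, -0.009 to 0.082 for Mta2 and -0.007 to 0.038 for Rbbp4. In aged brain they were -0.037 to 0.076 for Hdac1, -0.001 to 0.046 for Rcor1, -0.013 to 0.035 for Mta1 and -0.017 to 0.028 for Rbbp4. In heart they were -0.051 to 0.011 for Mta2 and -0.058 to 0.022 for Rbbp4, and between brain and heart -0.03 to 0.024 for Rbbp4. In APPSWE brain they were -0.153 to 0.01 for Hdac2, -0.095 to 0.014 for Sin3b, -0.161 to 0.059 for Kdm1a, -0.055 to 0.068 for Mta1, -0.026 to 0.057 for Mta2 and -0.005 to 0.087 for Rbbp7, and in littermates -0.066 to 0.098 for Mta2 and -0.075 to 0.034 for Rbbp7.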
